A study of Mus musculus with 24 samples.

Results

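Genes used as markers of developing peripheral nerve were examined in hindlimb buds of Nipbl+/- and wild type mouse embryos. They were Sox10, Foxd3, Erbb3, Fabp7, Tubb3, Stmn2, Nefl and Nefm, 8 of 19937 genes measured. The group is named for roles in nerve, but it was chosen with earlier results of these data known. Each was read by the 1 probe set of the array that carries its symbol alone. Total RNA came from both hindlimb buds of each embryo at stage E10.5, with 1 Affymetrix Mouse Gene 1.0 ST array for each of 12 Nipbl+/- and 12 wild type embryos. The Nipbl+/- embryos carried 1 mutant allele of Nipbl, which encodes a protein that loads the cohesin complex onto chromosomes, and the wild type embryos were their stage-matched littermates. No agent was given to either group. The question put to these genes was whether nerve genes as a whole, or single genes, differed between the genotypes, and whether they went up and down together from embryo to embryo.

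At this stage axons of motor and sensory neurons grow from the spinal cord and dorsal root ganglia toward the base of the limb bud, and neural crest cells that will become Schwann cells travel along them. Neuronal cell bodies lie outside the bud. RNA made by neurons can thus reach a limb sample only in axons or in tissue taken along at the base. Any RNA of the same genes made by other cells of the bud would be read along with it. Sox10 is the transcription factor that neural crest cells and all later stages of the Schwann cell lineage need, and Foxd3 is a forkhead factor of early neural crest. Erbb3 is the receptor by which Schwann cell precursors receive neuregulin 1 from axons. It binds the ligand but signals with its partner Erbb2, and it is also made by epithelia. Fabp7, brain lipid binding protein, marks glial progenitors and Schwann cell precursors. Tubb3 is the beta tubulin of neurons, Stmn2 a stathmin that acts on microtubules in growth cones, and Nefl and Nefm are the light and medium subunits of neurofilaments. Less nerve in a bud and less RNA of these genes per cell cannot be told apart in RNA from whole buds.

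The genotype labels held for the targeted gene. Nipbl had a log2 intensity of 9.54 to 9.97 (median 9.89) in Nipbl+/- embryos and of 10.3 to 10.7 (median 10.53) in wild type embryos, so the groups did not overlap, and the difference was -0.67 (SE 0.05, limma adjusted p = 2.42e-09). The hindlimb factors Pitx1 (11.5 ± 0.09 in Nipbl+/- and 11.5 ± 0.09 in wild type buds) and Tbx4 (11.7 ± 0.09 in Nipbl+/- and 11.7 ± 0.08 in wild type buds) were measured in both groups (log2 intensity, SD, n = 12 each). Array medians lay between 7.24 and 7.39. Nipbl+/- replicate 2 and wild type replicate 3 had the lowest median correlation with the other arrays, 0.992 for each. By Xist and Y-linked genes, 9 Nipbl+/- embryos were male and 3 female, against 4 male and 8 female wild type embryos. Wild type replicate 3 held Y-linked RNA at a male level with Xist at 7.71, against 6.69 at most in the other males and 11.85 or more in females. All values below are log2 intensities after RMA, in which a difference of 1 is a doubling. They carry no detection call. Levels of different probe sets were ranked only to tell dim from bright and were not compared as amounts of RNA.

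Among the 8 genes Erbb3 alone rose in Nipbl+/- buds at an adjusted p under 0.05, 0 fell, and the other 7 were not called in either direction. Over all genes, 57 of 19937 (0.286%) were called higher and 105 (0.527%) lower, so 162 (0.813%) were called in all; 9.26% of all genes, and Erbb3 alone of the 8, had an unadjusted p under 0.05. Erbb3 ranked 160 by p among them, next to the threshold. All 8 differences lay above 0, with a median of 0.06 (0.04 over the 4 glial genes and 0.10 over the 4 neuronal genes), where 46.5% of all genes lay above 0 and the median of all genes was -0.005. This is a description of 8 genes that share the same embryos, and no test was made of it.

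**Figure D1:**
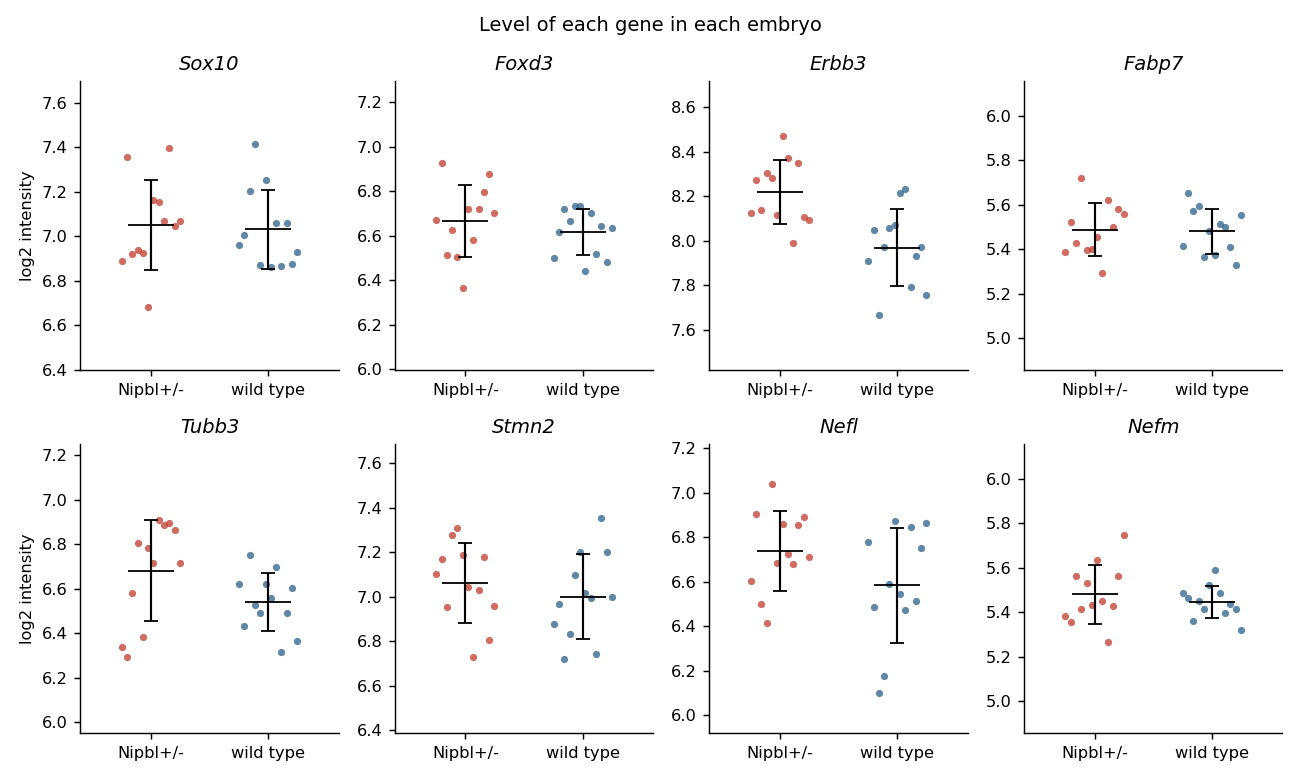
Log2 intensity (y axis) of each of the 8 genes in each embryo, with 12 Nipbl+/- embryos (red, left) and 12 wild type embryos (blue, right) in each panel; horizontal lines are means, whiskers are 1 SD, and every y axis spans the same range. The groups overlap in all 8 panels, and the shift is clearest for Erbb3, where 12 of 12 Nipbl+/- embryos lie above the wild type mean.

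Erbb3 had a log2 intensity of 7.99 to 8.47 (median 8.21) in Nipbl+/- embryos and of 7.67 to 8.24 (median 7.97) in wild type embryos. All 12 Nipbl+/- embryos were above the wild type mean, 6 were above the highest wild type embryo, and 7 wild type embryos were below the lowest Nipbl+/- embryo. The means were 8.22 ± 0.14 in Nipbl+/- and 7.97 ± 0.17 in wild type buds (SD, n = 12 each). The difference was 0.25 (SE 0.06, 95% CI 0.12 to 0.38), a ratio of 1.19, with a limma adjusted p of 0.0499. The size of the difference was steadier than the call. Leaving out each embryo in turn kept it between 0.22 and 0.27, yet the call was kept only when Nipbl+/- replicate 9, wild type replicate 7 or wild type replicate 8 was left out and was lost without each of the other 21 embryos, with adjusted p up to 0.0978. It was also lost with embryo sex as a covariate (0.23, adjusted p = 0.169) and without both arrays that stood apart (0.22, adjusted p = 0.0891).

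Within each sex the mean of Erbb3 was higher in Nipbl+/- embryos, but the size in males rested on 1 embryo. In males it averaged 8.24 ± 0.13 in 9 Nipbl+/- embryos and 7.97 ± 0.23 in 4 wild type embryos, a difference of 0.27 (SE 0.12, exact two-sided permutation p = 0.0308). Wild type replicate 3, counted as male with its intermediate Xist, had the lowest Erbb3 of all embryos, 7.67, and without it the male difference was 0.17 (SE 0.09, n = 9 and 3, exact two-sided permutation p = 0.1). In females it averaged 8.15 ± 0.20 in 3 Nipbl+/- embryos and 7.97 ± 0.15 in 8 wild type embryos, a difference of 0.18 (SE 0.13, exact two-sided permutation p = 0.133). Neither of the 2 differences over all embryos passed adjustment over the 16 tests of 8 genes in both sexes (adjusted p = 0.246 in males and 0.533 in females, exact permutation tests).

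Sox10, Foxd3 and Fabp7, the other glial genes, did not pass the test, and their groups overlapped over nearly their whole range. Sox10 ranged from 6.68 to 7.40 (median 7.06) in Nipbl+/- embryos and from 6.86 to 7.41 (median 6.98) in wild type embryos, with a difference of 0.02 (SE 0.07, ratio 1.01, 95% CI 0.914 to 1.12, adjusted p = 0.984 from limma). Foxd3 ranged from 6.37 to 6.93 (median 6.69) in Nipbl+/- embryos and from 6.44 to 6.73 (median 6.64) in wild type embryos, with a difference of 0.05 (SE 0.05, ratio 1.04, 95% CI 0.959 to 1.12, adjusted p = 0.884). In 3 Nipbl+/- embryos Foxd3 was above every wild type embryo. Fabp7 ranged from 5.29 to 5.72 (median 5.48) in Nipbl+/- embryos and from 5.33 to 5.65 (median 5.49) in wild type embryos, with a difference of 0.01 (SE 0.05, ratio 1.01, 95% CI 0.942 to 1.07, adjusted p = 0.989). These intervals are not adjusted for the number of genes, and the mean of each of the 3 lay below the median of all genes, where a true difference can be compressed on arrays.

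Erbb3 was also set against the other genes within each embryo. Because it was singled out as the gene that was called, these values describe the samples and no test of them is given. Erbb3 minus the mean of Sox10, Foxd3 and Fabp7 was 1.52 to 2.03 (median 1.83) in Nipbl+/- embryos and 1.17 to 1.99 (median 1.598) in wild type embryos. The genotypes differed in it by 0.22 (SE 0.08), by 0.18 with embryo sex as a covariate and by 0.20 without both arrays that stood apart. Against Sox10 alone the shift was 0.23 (SE 0.09; 0.18 with sex and 0.21 without the arrays), and against the mean of the 7 other genes it was 0.18 (SE 0.06; 0.15 with sex and 0.16 without the arrays). Such a difference between probe sets has no meaning as a ratio of transcripts within 1 embryo, and only its shift between genotypes is described.

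The neuronal genes did not pass the test either, though Tubb3 and Nefl had the larger differences of the 4. Tubb3 ranged from 6.29 to 6.91 (median 6.75) in Nipbl+/- embryos and from 6.31 to 6.75 (median 6.54) in wild type embryos. In 6 Nipbl+/- embryos Tubb3 was above every wild type embryo, but its lowest value was also in a Nipbl+/- embryo. The difference was 0.14 (SE 0.07, ratio 1.10, 95% CI 0.997 to 1.22, unadjusted p = 0.0576, adjusted p = 0.570 from limma). In the 3 female Nipbl+/- embryos Tubb3 exceeded the 8 female wild type embryos by 0.31 (exact permutation p = 0.0121, adjusted over 16 tests 0.194), against 0.06 between 9 male Nipbl+/- and 4 male wild type embryos (exact permutation p = 0.655). Nefl ranged from 6.41 to 7.04 (median 6.72) in Nipbl+/- embryos and from 6.10 to 6.87 (median 6.57) in wild type embryos. The 2 lowest wild type embryos were below every Nipbl+/- embryo, and the difference was 0.16 (SE 0.08, ratio 1.11, 95% CI 0.988 to 1.25, unadjusted p = 0.0764, adjusted p = 0.617). Its split by sex ran the other way, with 0.31 between 9 male Nipbl+/- and 4 male wild type embryos (exact permutation p = 0.0503, adjusted over 16 tests 0.269) and 0.05 between 3 female Nipbl+/- and 8 female wild type embryos (exact permutation p = 0.824). Without wild type replicate 3 the male difference of Nefl was 0.20 (exact permutation p = 0.164). That of Tubb3 was then 0.12 (exact permutation p = 0.409), as this embryo had the highest wild type Tubb3. The gap between the sexes was tested for neither gene.

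Stmn2 ranged from 6.73 to 7.31 (median 7.07) in Nipbl+/- embryos and from 6.72 to 7.35 (median 6.995) in wild type embryos. Its difference was 0.06 (SE 0.07, ratio 1.04, 95% CI 0.943 to 1.15, adjusted p = 0.898 from limma). Nefm ranged from 5.27 to 5.75 (median 5.44) in Nipbl+/- embryos and from 5.32 to 5.59 (median 5.45) in wild type embryos, with a difference of 0.04 (SE 0.04, ratio 1.02, 95% CI 0.961 to 1.09, adjusted p = 0.917). Nefl and Nefm encode subunits that assemble into the same filament.

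**Figure D2:**
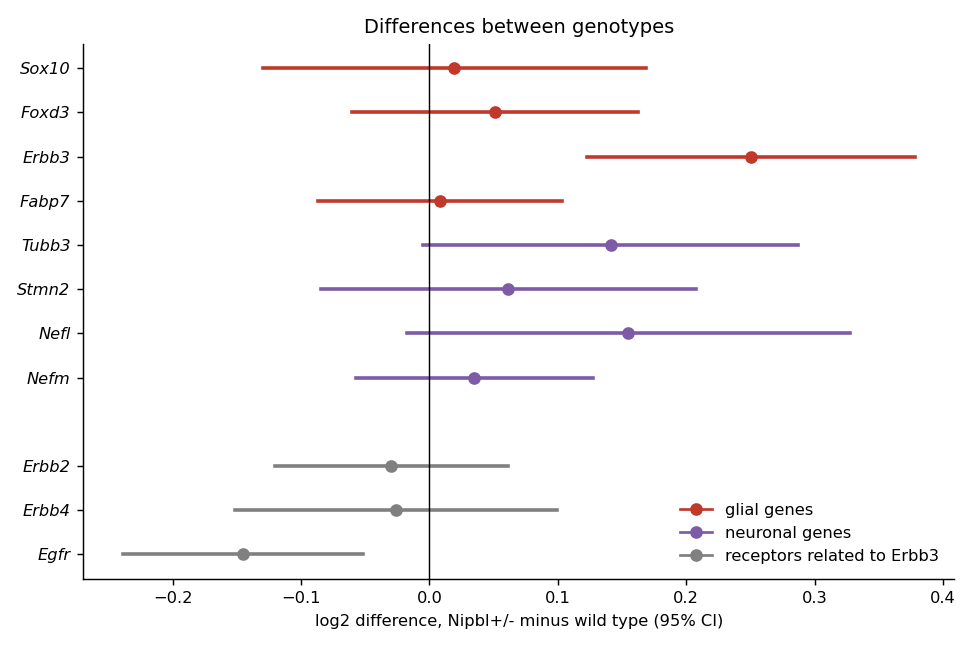
Log2 difference (x axis), Nipbl+/- minus wild type, of the 8 genes and of 3 receptors related to Erbb3; points are limma estimates and bars are 95% confidence intervals not adjusted for the number of genes (12 embryos in each genotype). Among the 8 genes the interval of Erbb3 alone lies wholly above 0, and that of Egfr lies wholly below 0 without passing adjustment (adjusted p = 0.178).

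The ligands and partners of Erbb3 were measured beside it. None of the 7 genes of neuregulins and related receptors passed the test, and all 7 lay below 0 (median -0.04). Erbb2, the partner through which Erbb3 signals, averaged 9.28 ± 0.11 in Nipbl+/- and 9.31 ± 0.10 in wild type buds (SD, n = 12 each), a difference of -0.03 (SE 0.04, adjusted p = 0.941 from limma). The difference was -0.14 (SE 0.06, adjusted p = 0.439) for Nrg1, the axonal ligand. For Egfr, the receptor of epidermal growth factor, it was -0.15 (SE 0.05, adjusted p = 0.178), and for Nrg3 it was -0.07 (SE 0.07, adjusted p = 0.845). Erbb3 minus Erbb2, chosen after the values had been seen, was -1.28 to -0.84 (median -1.07) in Nipbl+/- embryos and -1.61 to -1.21 (median -1.32) in wild type embryos. In this difference 11 of 12 Nipbl+/- embryos lay above every wild type embryo, and the shift was 0.28 (SE 0.05; 0.28 with embryo sex as a covariate and 0.26 without the arrays that stood apart), a description with no test for the same reason.

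No other gene of the nerve lists was called higher. Of 15 measured further genes of the Schwann cell lineage, 0 were called, with 7 above 0, a median of -0.003, and at an unadjusted p under 0.05 there were 1 higher and 2 lower (over all genes 4.13% were higher at that p and 5.14% lower). Those with the smallest p were the myelin gene Pmp22 (-0.31, SE 0.11, adjusted p = 0.259), Metrn, which encodes a secreted factor of glia (0.09, SE 0.04, adjusted p = 0.471), and Gfra3, the artemin receptor (-0.16, SE 0.08, adjusted p = 0.501). Of 26 further genes of neurons and axons, 0 were called and 8 lay above 0 (median -0.04), with 1 higher and 5 lower at that unadjusted p. The 3 with the smallest p lay below 0, opposite to the 4 neuronal genes above: Tubb2b, another beta tubulin (-0.19, SE 0.06, adjusted p = 0.131), the adhesion molecule Nrcam (-0.19, SE 0.06, adjusted p = 0.145) and Ina, an intermediate filament protein of neurons (-0.14, SE 0.06, adjusted p = 0.348). By mean level among all genes, Tubb2b was at percentile 85.3 and Pmp22 at 84.8, above the range of the 8 genes (17.6 to 55.7). Nrcam was at 25.7 and Ina at 33.0. Which cells of the samples made these RNAs was not tested.

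Of 15 factors and receptors of motor, sensory and sympathetic neurons, 1 fell and 3 lay above 0 (median -0.04). This was Ntrk2, the receptor of brain-derived neurotrophic factor, at 5.84 ± 0.09 in Nipbl+/- and 6.05 ± 0.15 in wild type buds (SD, n = 12 each), a difference of -0.21 (SE 0.05, limma adjusted p = 0.0497). Like that of Erbb3, this call lay next to the threshold; it held in 5 of 24 fits that each left out 1 embryo and was lost with embryo sex as a covariate (-0.18, adjusted p = 0.176), when the variance was modelled as trended and robust (0.0657), under a replicate block (0.093) and with array medians set to 0 (0.064), all from limma. The differences were -0.12 (SE 0.04, adjusted p = 0.230) for Chat, which makes acetylcholine, and -0.11 (SE 0.08, adjusted p = 0.749) for Th, the rate-limiting enzyme of catecholamine synthesis. Of 8 neurotrophic ligands and co-receptors 0 were called, with Gdnf at -0.13 (SE 0.05, adjusted p = 0.357), its co-receptor Gfra1 at 0.12 (SE 0.06, adjusted p = 0.525) and Ntf5 at -0.08 (SE 0.05, adjusted p = 0.734).

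Markers of other tissue that a dissected bud could hold were counted in the same fit. None was called among 10 neural tube (median -0.04), 7 melanoblast (-0.06), 9 endothelial (0.01), 10 macrophage (-0.11), 8 erythroid (-0.03), 7 limb muscle precursor (0.03), 5 somite (0.07) and 6 limb mesenchyme (0.001) markers. The macrophage list had 0 of 10 above 0 and 4 of 10 lower at an unadjusted p under 0.05 from limma. Over all genes 46.5% lay above 0 and 5.14% were lower at that p. The macrophage markers had a median percentile of mean level of 35.3 among all genes. Among 10 limb ectoderm markers (median 0.01), 1 was called, Krt5, a keratin of basal epidermis, which fell by 0.31 on the log2 scale (9.76 ± 0.12 in Nipbl+/- and 10.1 ± 0.15 in wild type buds, SD, n = 12 each; adjusted p = 0.00171 from limma). In the same list the epithelial adhesion molecule Epcam had a difference of 0.15 (SE 0.05, adjusted p = 0.254) and the splicing regulator Esrp1 of 0.09 (SE 0.05, adjusted p = 0.545). What part any of these tissues had in the difference of Erbb3 was not tested.

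Most pairs of the 8 genes had little correlation from embryo to embryo. Each embryo's deviation from the mean of its genotype was correlated over the 24 embryos for all 28 pairs, with p from 100000 permutations of embryos within genotype. Of the 28 pairs, 16 had a positive r, the median r was 0.03, and 1 pair passed adjustment over the 28. That pair was Sox10 and Foxd3, with r = 0.70 (permutation p = 0.00025, adjusted 0.007) and rho = 0.70 (permutation p = 0.0003, adjusted 0.0084). Its r was 0.75 without the 2 embryos farthest from the median of Sox10, 0.78 within Nipbl+/- and 0.58 within wild type embryos. Without both arrays that stood apart it was 0.64 (adjusted p = 0.0563). Next came Foxd3 and Fabp7, with r = 0.43 (permutation p = 0.0467, adjusted 0.499) and rho = 0.41 (permutation p = 0.056, adjusted 0.496), 0.42 without the 2 farthest embryos, 0.45 within Nipbl+/- and 0.41 within wild type embryos.

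**Figure D3:**
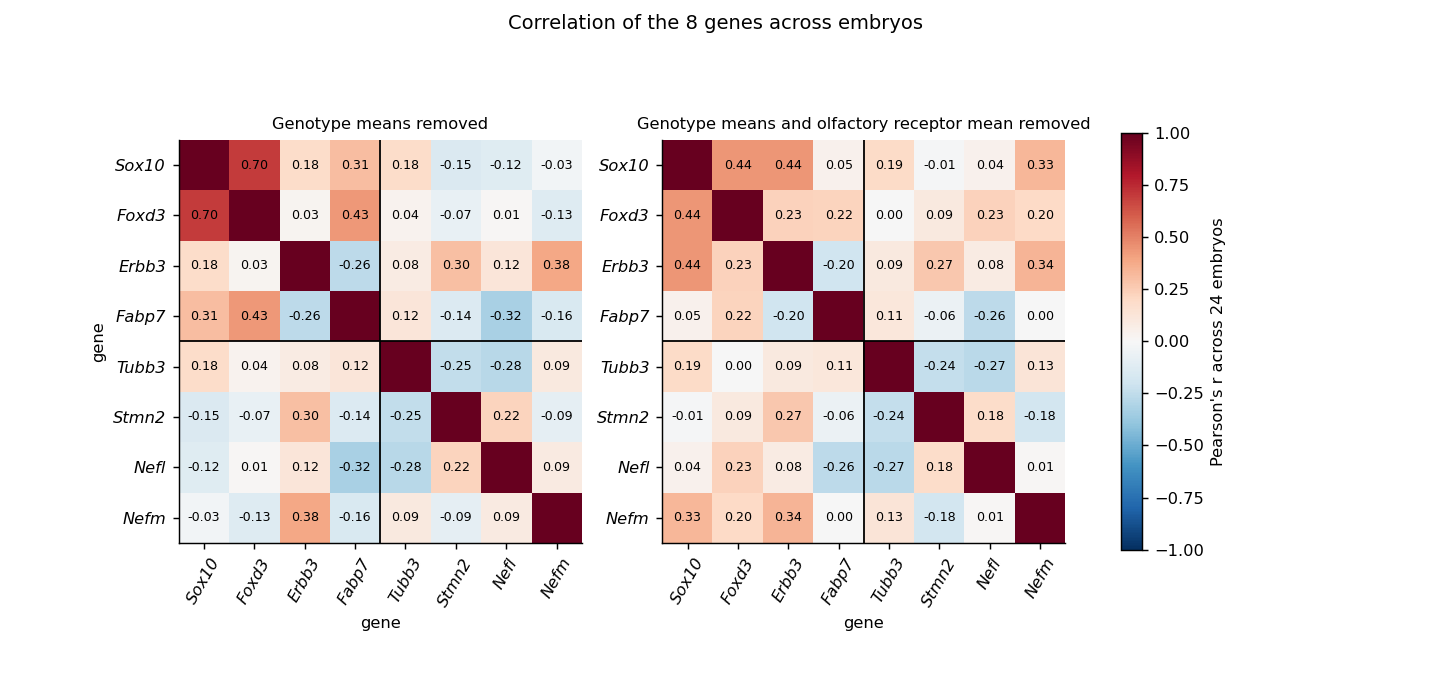
Pearson's r across 24 embryos (colour and number in each cell) for every pair of the 8 genes, ordered with 4 glial genes before 4 neuronal genes; lines part the 2 classes. Genotype means were removed at left, and the mean of the olfactory receptor genes of each array as well at right, where Sox10 and Foxd3 have r = 0.44 instead of 0.70.

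Erbb3 had no pair past adjustment. Its r was 0.18 with Sox10 (permutation p = 0.395, rho = 0.20 with permutation p = 0.35, adjusted 0.854 and 0.681), 0.03 with Foxd3 (permutation p = 0.904, adjusted 0.947) and -0.26 with Fabp7 (permutation p = 0.219, adjusted 0.766). With Sox10 it was 0.46 within Nipbl+/- and -0.07 within wild type embryos. The highest r of Erbb3 were with neuronal genes. They were 0.38 with Nefm (permutation p = 0.0535, adjusted 0.499) and 0.30 with Stmn2 (permutation p = 0.167, adjusted 0.668). With Nefm r was 0.15 within Nipbl+/- and 0.81 within wild type embryos. Erbb3 had r = 0.47 with the mean of the 4 neuronal genes (permutation p = 0.0256, adjusted 0.146) and rho = 0.44 (permutation p = 0.0359, adjusted 0.171). The neuronal genes had no pair of their own that stood out: their 6 pairs had r from -0.28 for Tubb3 and Nefl to 0.22 for Stmn2 and Nefl, with a median of 0.002 and 0 pairs at an unadjusted p under 0.05. Nefl and Nefm, the 2 neurofilament subunits, had r = 0.09 (permutation p = 0.641, adjusted 0.854). The 16 pairs of a glial with a neuronal gene had a median r of -0.01, from -0.32 to 0.38, and none of them passed an unadjusted p of 0.05. The means of the 4 glial and of the 4 neuronal genes had r = 0.03 (permutation p = 0.903, adjusted 0.942) and rho = 0.04 (permutation p = 0.858, adjusted 0.954), with r = 0.18 within Nipbl+/- and -0.15 within wild type embryos. This value depended on the setting: it was 0.36 with the olfactory receptor mean removed, 0.31 with the interquartile range of the array removed and 0.36 under a replicate block.

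Of the 8 genes, 3 have an entry in the RefSeq promoter table, Foxd3, Fabp7 and Tubb3. The 250 bases before the start site of Foxd3 and Fabp7, build GRCm38.p6, are shown because these were the glial pair with the second highest r, to set side by side what their promoters hold. That of Foxd3 lies at chr4:99656049-99656298 and that of Fabp7 at chr10:57784673-57784922, both on the plus strand. Capitals mark matches to TGACGTCA, the palindromic cyclic AMP response element, and to CCAAT, the core of the CCAAT box, which reads ATTGG on the other strand.
Foxd3: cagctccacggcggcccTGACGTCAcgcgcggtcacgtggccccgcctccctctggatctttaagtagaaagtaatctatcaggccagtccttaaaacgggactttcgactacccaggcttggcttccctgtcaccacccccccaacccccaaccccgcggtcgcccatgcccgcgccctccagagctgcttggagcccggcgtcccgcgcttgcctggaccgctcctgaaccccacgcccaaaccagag
Fabp7: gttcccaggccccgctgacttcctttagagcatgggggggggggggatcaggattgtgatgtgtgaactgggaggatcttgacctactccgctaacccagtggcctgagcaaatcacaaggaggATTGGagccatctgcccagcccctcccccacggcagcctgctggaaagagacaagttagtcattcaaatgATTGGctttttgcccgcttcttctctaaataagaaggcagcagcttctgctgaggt
The Foxd3 window had 1 match to TGACGTCA, which 1.55% of 32851 promoter windows of this length hold, and 0 to CCAAT. The Fabp7 window had 2 matches to CCAAT, which 33.9% of windows hold, and 0 to TGACGTCA. On either strand, neither window held ACAAAG or AACAAT, cores of the sites that SOX proteins bind (16.5% and 9.42% of windows). The G and C content was 65.6% for Foxd3 and 54.8% for Fabp7, where the median of all windows was 52.4%. These matches describe the letters only.

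Sox10 and Foxd3 followed measures of the whole array. Each was set against 20 other measures, among them the means of the marker lists and of 1027 olfactory receptor genes (5.15% of all genes), which belong to olfactory neurons and served as a measure of how the array read genes foreign to the tissue. In this family of 199 relations of the 8 genes and their 2 means, 28 passed adjustment. Sox10 had r = 0.68 with the olfactory receptor mean (permutation p = 0.00047, adjusted 0.00716) and rho = 0.67 (permutation p = 0.00055, adjusted 0.0073), with r = 0.63 without the 2 farthest embryos, 0.69 within Nipbl+/- and 0.66 within wild type embryos. Foxd3 had r = 0.69 with it (permutation p = 0.00036, adjusted 0.00651) and rho = 0.76 (permutation p = 8e-05, adjusted 0.00318), with r = 0.62, 0.69 and 0.69 in the same subsets. With the interquartile range of the array, the spread of all its values, r was -0.70 for Sox10 and -0.73 for Foxd3 (adjusted permutation p = 0.00486 and 0.00313; rho = -0.72 and -0.79, adjusted 0.00418 and 0.00199; r = -0.65 and -0.68 without the 2 farthest embryos). The olfactory receptor mean was 4.62 ± 0.08 in Nipbl+/- and 4.63 ± 0.06 in wild type embryos (SD, n = 12 each).

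With the olfactory receptor mean removed along with genotype, Sox10 and Foxd3 had r = 0.44 (permutation p = 0.0367, adjusted over 28 pairs 0.513), Foxd3 and Fabp7 had r = 0.22 (permutation p = 0.325, adjusted 0.72), and no pair passed adjustment. Sox10 and Erbb3 then had r = 0.44 as well (permutation p = 0.0333, adjusted 0.513), above the 0.18 they had before. With the interquartile range of the array removed instead, Sox10 and Foxd3 had r = 0.40 (adjusted permutation p = 0.74). Sox10 and Erbb3 had r = 0.53 in that setting, and again no pair passed adjustment. With array medians set to 0 Sox10 and Foxd3 had r = 0.68 (adjusted permutation p = 0.0098). That setting subtracts each median as it stands and does not remove it as a covariate, which was not run. With the array median itself r was 0.76 for Sox10 and 0.78 for Foxd3 (adjusted permutation p = 0.00133 and 0.000995). The covariates, unlike the centring of arrays, were added after the data had been seen. What part array quality or dissection had in the relation of Sox10 and Foxd3 was not tested.

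**Figure D4:**
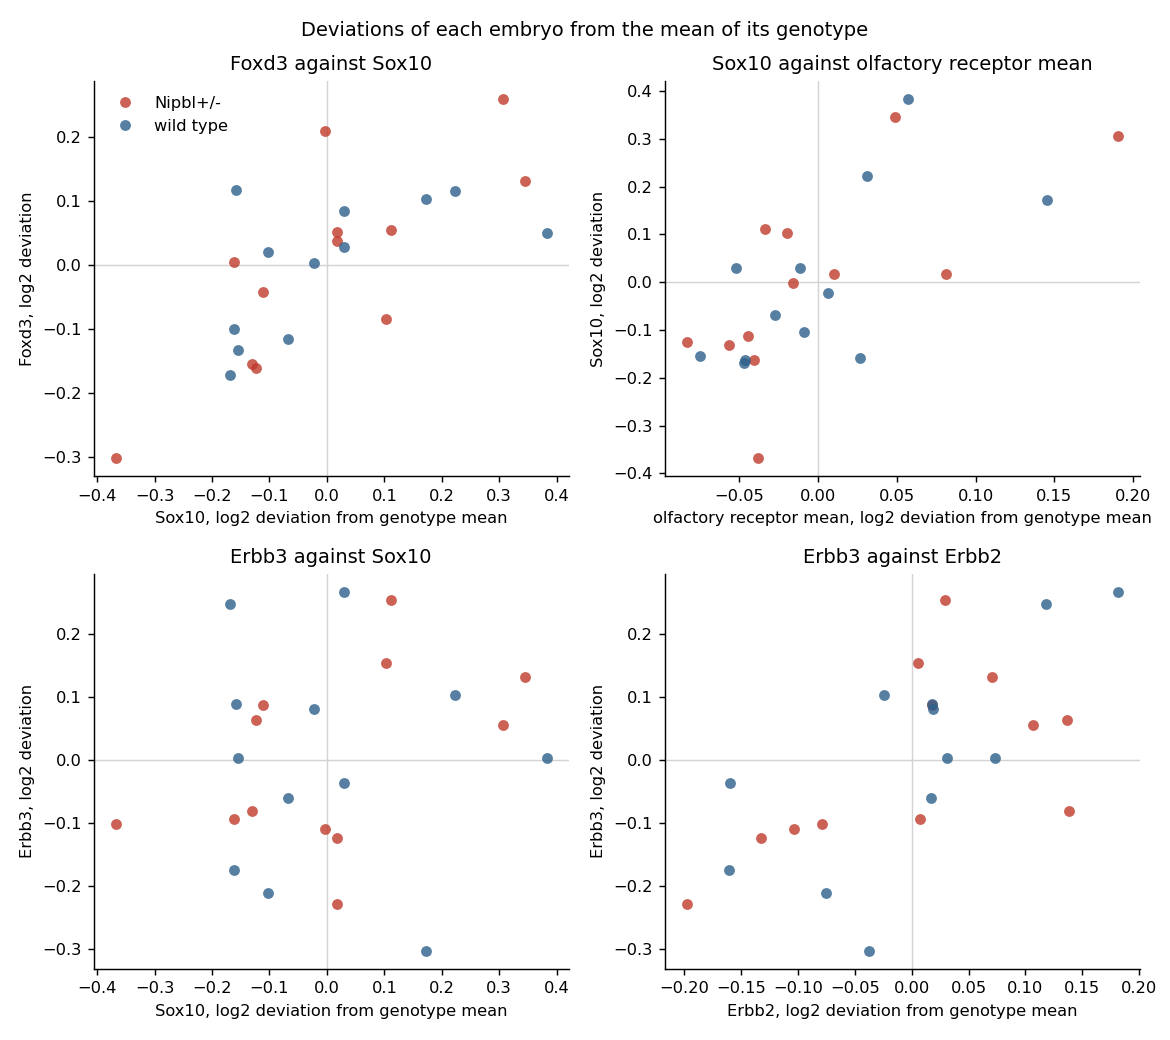
Deviation of each embryo from its genotype mean (log2, both axes), Nipbl+/- in red and wild type in blue, 12 embryos each. Foxd3 rises with Sox10 (r = 0.70) and Sox10 with the olfactory receptor mean (r = 0.68). Erbb3 has r = 0.18 with Sox10 in these deviations (0.44 with the olfactory receptor mean removed as well) and r = 0.66 with Erbb2.

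Sox10 and Foxd3 also followed the means of lists of neural genes. Within the Schwann cell and neuron lists, single genes had r of either sign with both. Some genes of the muscle, melanoblast and somite lists had r about as high as that of the Schwann cell list mean. With the neural tube markers r was 0.73 for Sox10 and 0.81 for Foxd3 (adjusted permutation p = 0.00265 and 0.000995; rho = 0.69 and 0.81, adjusted 0.00488 and 0.00199; r = 0.67 and 0.76 without the 2 farthest embryos). With the further Schwann cell lineage genes it was 0.59 and 0.62 (adjusted permutation p = 0.0232 and 0.0158), but the rank correlations of 0.50 and 0.54 did not pass (adjusted 0.0982 and 0.0625). After removal of the olfactory receptor mean the r with neural tube markers was 0.39 for Sox10 and 0.59 for Foxd3, and that with Schwann cell lineage genes was 0.19 and 0.23. Both had negative r with the endothelial markers, -0.62 for Sox10 and -0.65 for Foxd3, which became -0.07 and -0.12 after that removal. The neuronal mean had r = -0.12 with the 26 further genes of neurons and axons (permutation p = 0.586, adjusted 0.793).

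For Erbb3 the r with the array interquartile range, the array median and the olfactory receptor mean was 0.26, 0.01 and -0.20, none past adjustment, and of the 20 measures its highest r were with Erbb2 and limb markers. With Erbb2, the only single gene of the 20 and added as the partner of Erbb3, it had r = 0.66 (permutation p = 0.00059, adjusted 0.00734) and rho = 0.65 (permutation p = 0.00096, adjusted 0.0101), with r = 0.57 without the 2 farthest embryos, 0.60 within Nipbl+/- and 0.72 within wild type embryos. With the 6 limb mesenchyme markers it had r = 0.64 (permutation p = 0.00068, adjusted 0.00796; rho = 0.67, adjusted 0.00771), 0.68 without the 2 farthest embryos, 0.52 within Nipbl+/- and 0.80 within wild type embryos. With the 10 limb ectoderm markers it had r = 0.57 (permutation p = 0.00257, adjusted 0.0222), but rho = 0.44 did not pass (adjusted 0.169). With the further Schwann cell lineage genes its r was -0.09. Removal of the olfactory receptor mean left these 4 values at 0.67, 0.63, 0.58 and 0.09.

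**Figure D5:**
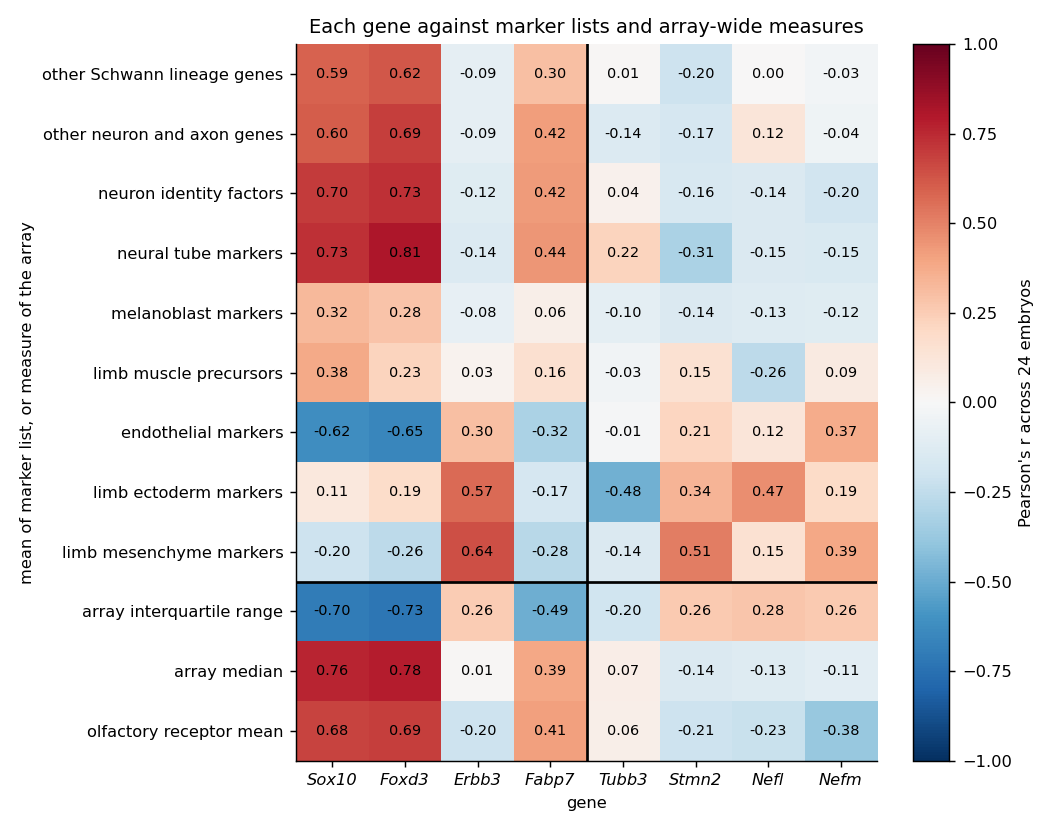
Pearson's r across 24 embryos (colour and number) of each of the 8 genes (columns) with the mean of each marker list and with 3 array-wide measures (rows), genotype means removed. Sox10 and Foxd3 share a column pattern with high r for neural lists, the array median and the olfactory receptor mean, while Erbb3 has its highest r with limb mesenchyme (0.64) and limb ectoderm (0.57) markers.

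The genes whose deviations were most like those of each of the 8 were ranked over all genes, by r over 24 embryos and with no test. For Erbb3 they were Limk2 (r = 0.82), a kinase of actin turnover, Fry (0.80), the TGF-beta receptor Tgfbr2 (0.79), the JNK scaffold Mapk8ip1 (0.79) and Mon2 (0.78). For Sox10 they were Pebp4 (0.87), the kidney cadherin Cdh16 (0.86), the immunoglobulin-domain protein Cd101 (0.84), Cyp2w1 (0.83) and the neuropeptide gene Npvf (0.83), and for Foxd3 Slc32a1 (0.89), the vesicular GABA transporter, Spns3 (0.88), Rph3a (0.85), Aldoart2 (0.85) and the somatostatin receptor Sstr3 (0.85). None of these 10 is on the lists of Schwann cell or neuronal genes. For Fabp7 they were Trp73 (0.74), Olfr849 (0.73), Krtap6-1 (0.72), Sema3g (0.71) and Krt24 (0.70). Olfactory receptor genes made up 11 of the 100 genes most like Fabp7, 4 of those most like Sox10 and 1 of those most like Foxd3. Their share of all genes was 5.15%.

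For the neuronal genes the most alike were Gm4750 (0.71), Hnrnpd (0.69), Gm10419 (0.63), Fam20a (0.63) and Eif3e (0.62) for Tubb3, and Rab32 (0.80), Slc2a10 (0.78), Pgpep1 (0.78), Acat1 (0.77) and Xpa (0.77) for Stmn2. For Nefl they were Dhx35 (0.75), Dnlz (0.74), Snhg17 (0.72), Zfp90 (0.72) and Spata2 (0.72), and for Nefm Eid2 (0.68), Psmd4 (0.66), Iqcc (0.65), Sf3b3 (0.65) and 4933411G06Rik (0.63). Among these 20 genes are the RNA-binding protein Hnrnpd, the translation factor subunit Eif3e, the proteasome subunit Psmd4 and the splicing factor subunit Sf3b3, which all cells make, and no gene of the neuronal lists. Among all genes ranked by likeness, Foxd3 stood above 97.4% for Sox10 and Sox10 above 95.8% for Foxd3, whereas Erbb3 stood above 60.6% for Sox10. For Nefl, Nefm stood above 55.3% of genes, and for Tubb3, Stmn2 stood above 21.7%. Erbb3 stood above 96.9% of genes for Nefm and above 94.8% for the mean of the 4 neuronal genes. Nefm stood above 88.6% for Erbb3. For the mean of the 4 glial genes the 10 most alike, the 4 themselves left out, were led by Ttc34 (0.87), Matn4 (0.83), Opn1mw (0.83) and Gprin2 (0.83), followed by Ajm1, Cts8, Spdye4c, Defb29, Spns3 and Cpne6 at 0.82 to 0.81. For the neuronal mean they were Ostf1 (0.78), Slbp (0.76), Ccdc89 (0.74), Ints7, Ndfip2, Zbtb43, Lonrf2, Nfyc, Rcn1 and Retreg1, the last at 0.71.

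The 8 genes also differed in how much they varied between embryos of 1 genotype. Nefl had the largest SD within genotype, 0.22, higher than that of 94.0% of all genes, followed by Sox10 at 0.19 (85.6%), Tubb3 at 0.19 (83.8%), Stmn2 at 0.19 (83.8%) and Erbb3 at 0.16 (69.5%). Foxd3 had an SD of 0.14 (51.9%), Fabp7 of 0.11 (30.7%) and Nefm of 0.11 (27.2%). Nefl and Nefm were thus at opposite ends of this order. By mean level Nefm was at percentile 17.6 of all genes, Fabp7 at 17.9 and Nefl at 35.9. What part the low level of Nefm had in its SD and in its r with Nefl was not tested.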

How the data were processed

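Total RNA of both hindlimb buds of each of 24 embryos was read on 1 Affymetrix array per embryo. The authors deposited log2 values per probe set, made with the RMA method by GenePattern's Expression File Creator; the tool versions and genome build are not given in the sources used here, so no positions of probe sets are printed. Of 28159 probe sets, 21640 carry 1 gene symbol in the platform annotation and were used (19937 genes, the brightest probe set over 24 arrays for each), 1321 carry several and 5198 none. The members and lists were chosen with earlier results of these data known. Genotypes were compared with limma 3.58.1 (R 4.3.3; lmFit and eBayes over all genes, Benjamini-Hochberg adjustment, threshold 0.05). Correlations used deviations from the genotype mean, with 100000 permutations (numpy 2.4.6, scipy 1.17.1). The authors' methods name no covariate. Genes named beside the 8 were, of each other list, those called and otherwise the 3 with the smallest p, plus the 5 most like each gene and the 10 most like each mean; of lists with no call among markers of other tissue only counts and medians are given. Pitx1 and Tbx4, printed to check the tissue, and Erbb2, the partner of Erbb3, were added outside this rule. Some genes of the lists are not reported here. Alternatives were the mean of probe sets, a filter on dim genes, a trended robust variance, array weights, a replicate block, embryo sex, centred arrays and, added after the data were seen, array-wide covariates and omitted embryos. The number of arrays limits the precision.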

Additional observations from a re-analysis of the deposited data

How the results depend on the processing

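Nipbl stayed lower under every alternative run. The difference of Erbb3 stayed positive under all 34, and its adjusted p from limma ranged from 0.00478 to 0.169; it fell short of the threshold with embryo sex as a covariate (0.23) and without the 2 arrays that stood apart (0.22), where 0 of the 8 genes were called, and leaving out 1 embryo gave 0.22 to 0.27, with 0 to 1 genes called. The differences of Sox10 and Fabp7 are so near 0 that leaving out 1 embryo changed their sign (-0.0119 to 0.0544 and -0.0128 to 0.0262), and that of Stmn2 was -0.00363 with sex as a covariate. Over all genes, 57 higher and 105 lower became 101 and 180 with array weights, 186 and 303 with the array interquartile range, and 131 and 267 with the olfactory receptor mean as covariates; with sex as a covariate 30 were higher. Leaving out 1 embryo gave 36 to 72 higher and 74 to 149 lower. Genes of the other lists called lower were 2, against 1 with the filter on dim genes, the trended variance and array medians set to 0, and 7 with the interquartile range, and 1 or 2 without 1 embryo (with sex as a covariate they were 2, Krt5 and Nrcam, and Ntrk2 was lost); those called higher were 0, against 1 under the replicate block. The filter on dim genes left Erbb3 alone of the 8. Member pairs past adjustment were 1, against 0 with the olfactory receptor mean, with the interquartile range and without the 2 arrays; r of Sox10 and Fabp7 was -0.0544 with the interquartile range. The cause of these changes was not tested.

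Same-numbered embryos of the 2 genotypes had correlations of their deviations from -0.35 to 0.28, over 0.1 in 5 of 12 pairs. Their median was -0.02, against 0.01 for embryos with different numbers, and 3 of 12 wild type embryos were most like their own number. The labels do not say what a number marks, and these values cannot tell whether it marks a litter or a batch. With that number as a replicate block, Erbb3 kept its difference of 0.25 (limma adjusted p = 0.00478), 48 genes were higher and 121 lower, r of Erbb3 and Fabp7 was 0.0287 in place of -0.26, and the glial and neuronal means had r = 0.36. Their r was also 0.36 with the olfactory receptor mean and 0.31 with the interquartile range removed, against 0.03.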
